A study of Rattus norvegicus with 42 samples.

Results

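The mitochondrial genome encodes a small set of proteins of the respiratory chain, and 6 of its genes are described here: Mt-cyb, which encodes cytochrome b, the one subunit of complex III made in mitochondria; Mt-co1, Mt-co2 and Mt-co3, which encode the 3 core subunits of cytochrome c oxidase (complex IV); and Mt-atp6 and Mt-atp8, which encode 2 subunits of the membrane part of ATP synthase (complex V). They were chosen by identifier (ENSRNOG00000031766, ENSRNOG00000034234, ENSRNOG00000030371, ENSRNOG00000030700, ENSRNOG00000031979 and ENSRNOG00000033299, in the order of the symbols above), and all 6 were found among the 13776 genes of the count tables. The symbols were given together with the identifiers, since 0 identifiers of the tables matched the reference table used here. RNA was sequenced from GH4C1 cells, an established rat somatolactotroph line of pituitary origin, at 10, 14, 18, 22, 26, 30 and 34 h (labelled ZT10 to ZT34) after the medium had been replaced to synchronise the cells. Unedited wild-type cells (WT) were compared with Neat1 -/- cells made with CRISPR-Cas9 (KO), with 3 replicates in each of the 14 groups and 42 libraries in all. Both genotypes were grown in the same medium with horse serum and fetal calf serum, and neither received a drug. The study asked how the loss of Neat1, a long non-coding RNA that forms the scaffold of nuclear paraspeckles, affects rhythmic gene expression. How many KO clones were used, and whether replicates were separate cultures, is not given in the sources used here, so the p-values measure the spread between these libraries, which may be technical.

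As background, mitochondrial genes are transcribed inside the organelle by its own polymerase into long RNAs that span many genes. These are cut apart, largely at the tRNAs that lie between the coding regions, into mRNAs whose levels then differ through their stability. Mt-atp8 and Mt-atp6 overlap and are carried on 1 shared mRNA. Complexes III, IV and V also contain many subunits encoded in the nucleus, which have to be made in step with the mitochondrial ones. In pituitary endocrine cells, as in other cells, complexes III and IV move electrons to oxygen and pump protons, and complex V uses the proton gradient to make ATP.

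The total per library, in units of 1000000 counts, was 34.5 to 68.8 for WT and 45.9 to 60.5 for KO. In 40 of the 42 pairs of replicates the log2 levels over all genes correlated with a Pearson r of 0.987 to 0.995. The other 2 pairs, with r of 0.919 and 0.935, both contained WT replicate 1 of 34 h, and the main results that rest on that library are given with and without it. Whether it is a mixed or mislabelled library was not tested. The nuclear-encoded subunits, complex I and the mitochondrial ribosomal RNAs were not analysed as sets here, because the identifiers could not be paired with symbols. Genes given below by identifier alone may belong to one of these sets, which could not be checked without symbols. For the same reason the Neat1 level and the pituitary markers were not checked, so the genotype rests on the labels. The level of a gene is its CPM, the count per 1000000 counts of the library, after TMM, a scaling between libraries that assumes most genes do not differ. CPM is not corrected for gene length, so levels are compared between libraries and not between genes. Nuclear copies of mitochondrial sequence exist in mammals, and how the counting treated such copies or the Mt-atp8 and Mt-atp6 overlap is not given in the sources used here, so the levels, that of Mt-atp8 above all, carry that uncertainty.

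All 6 mRNAs were higher in KO than in WT cells when the 7 times were averaged, by 2.51-fold for Mt-co1 up to 8.27-fold for Mt-atp8. Higher calls were made for 6 of 6 members and for 43.4% of all genes tested, while 88.1% of all genes were called in one direction or the other. All 6 members were also past 2-fold, a size that 11.8% of all genes reached among the higher calls. The median log2 fold change was 1.88 over the members and -0.01 over all genes. In a bulk measurement such as this, more RNA per cell and a larger share of cells with much of it cannot be told apart. How RNA was selected for the libraries is not given in the sources used here, so a difference in library preparation between the genotypes and a difference between the cells cannot be told apart for any KO against WT value.

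For Mt-cyb, the 18 WT libraries of 10 to 30 h had a lowest, median and highest level of 117, 142 and 191 CPM, and the 3 WT libraries of 34 h had 2402, 229 and 278 CPM. The 18 KO libraries of 10 to 30 h had 954, 1116 and 1296 CPM, and the 3 of 34 h had 1172, 527 and 609 CPM. Up to 30 h the lowest KO library was thus 4.997-fold above the highest WT library, whereas at 34 h WT replicate 1 exceeded every KO library. The mean over 21 libraries was 264 ± 491 CPM in WT and 1076 ± 191 CPM in KO (SD). The WT mean was 157 ± 38 CPM without replicate 1 of 34 h. With all libraries, the log2 fold change averaged over times was 2.48 (SE 0.17, edgeR quasi-likelihood test, adjusted p = 8.29e-15). Of the 13776 genes, 123 had a larger log2 fold change.

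Mt-co1, whose protein holds the oxygen-reducing centre of complex IV, had the smallest fold change of the 6. Its WT libraries of 10 to 30 h ran from 2507 through a median of 2781 to 3316 CPM, and those of 34 h had 5767, 3609 and 3777 CPM. Its KO libraries of 10 to 30 h ran from 6932 through 7747 to 8277 CPM, and those of 34 h had 8183, 5414 and 5936 CPM. The groups were apart by at least 2.09-fold up to 30 h, and over all 42 libraries 1 WT library exceeded the lowest KO library. The log2 fold change was 1.33 (SE 0.049, edgeR adjusted p = 4.09e-22), and 905 genes had a larger one.

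Mt-co2 encodes the subunit that receives electrons from cytochrome c. In WT it had a lowest, median and highest level of 401, 464 and 595 CPM over 10 to 30 h, then 960, 598 and 626 CPM in the libraries of 34 h. In KO it had 1646, 1917 and 2159 CPM over 10 to 30 h, then 1916, 1240 and 1372 CPM. No WT library reached any KO library at any time. The log2 fold change averaged over times was 1.87 (SE 0.058, edgeR adjusted p = 3.00e-24), which is 3.66-fold. The mean level was 505 ± 124 CPM in WT and 1829 ± 225 CPM in KO (SD, 21 libraries each). The WT mean was 483 ± 69 CPM without replicate 1 of 34 h.

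Mt-co3, the third core subunit of complex IV, had 346, 377 and 432 CPM in WT over 10 to 30 h and 2481, 476 and 571 CPM at 34 h. In KO it had 1330, 1549 and 1929 CPM over 10 to 30 h and 1636, 713 and 808 CPM at 34 h. The gap up to 30 h was at least 3.08-fold, and at 34 h WT replicate 1 stood above every KO library while the other two WT libraries stood below every KO library. On the log2 scale Mt-co3 was higher by 1.73 (SE 0.13, edgeR adjusted p = 2.49e-14).

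Mt-atp6 encodes subunit a, which forms part of the proton path of ATP synthase. In WT its lowest, median and highest levels over 10 to 30 h were 139, 153 and 187 CPM, and the libraries of 34 h had 1259, 225 and 302 CPM. In KO they were 624, 759 and 902 CPM, and 770, 302 and 365 CPM at 34 h. The groups were apart by at least 3.34-fold up to 30 h, but at 34 h WT replicate 3 and KO replicate 2 had nearly the same level. Mt-atp6 was higher in KO by 1.89 on the log2 scale (SE 0.13, edgeR adjusted p = 8.09e-15).

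Mt-atp8, which encodes a short membrane subunit of ATP synthase, had the largest fold change and by far the fewest counts, 39 to 196 per library in WT and 225 to 721 in KO. Its WT libraries of 10 to 30 h had 0.835, 1.22 and 1.61 CPM as lowest, median and highest, and those of 34 h had 4.27, 1.21 and 1.53 CPM. Its KO libraries had 8.15, 12.3 and 14.8 CPM, and 11.8, 4.79 and 5.04 CPM at 34 h. As with Mt-co2, the WT and KO libraries did not overlap at any time. The log2 fold change was 3.05 (SE 0.12, edgeR adjusted p = 1.62e-21), and 53 genes had a larger one.

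**Figure D1:**
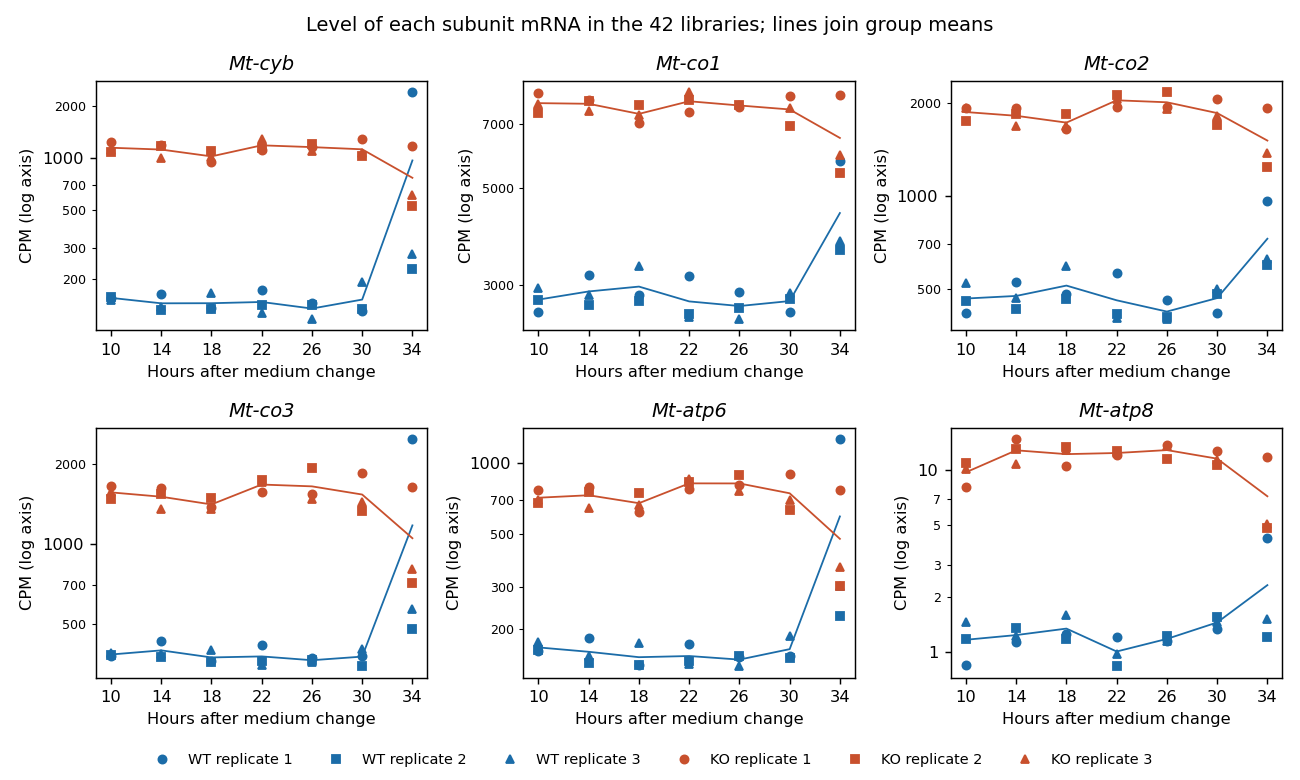
Level in CPM (log axis) of each subunit mRNA against hours after the medium change, with 1 point per library (42 per panel) and lines through the group means of 3 replicates, WT in blue and KO in orange. From 10 to 30 h every KO point lies above every WT point in all 6 panels. The share of all genes so separated at those times is not given here. At 34 h WT replicate 1 is high and KO replicates 2 and 3 are low, so that the groups meet or cross in 4 panels.

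Over the 42 libraries, the WT and KO ranges did not overlap for 2 of the 6 members. Of all genes, 8.62% had every KO library above every WT library, beside the 43.4% called higher in KO. With WT replicate 1 of 34 h left out they did not overlap for 5, beside 21.5% of all genes with KO above WT, and Mt-atp6 missed by a narrow margin, with 302.0 CPM in the lowest KO library and 302.5 CPM in the highest WT library. The average log2 fold changes without that library were 1.36 for Mt-co1, 1.89 for Mt-co3, 1.91 for Mt-co2, 2.06 for Mt-atp6, 2.75 for Mt-cyb and 3.16 for Mt-atp8. Scaling by library totals in place of TMM moved the median of all genes to -0.31 and the share of higher among called genes from 49.2% to 31.7%. On that scale the members were still called higher, by 1.03 for Mt-co1 to 2.75 for Mt-atp8 on the log2 scale.

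The same genotype difference was seen at each of the first 6 times. From 10 to 30 h, 36 of 36 tests of a member at a time were called higher in KO, with adjusted p of at most 9.51e-06 by edgeR. Of all genes, 35.1%, 36%, 34.8%, 35.6%, 35.3% and 37% were called higher at 10, 14, 18, 22, 26 and 30 h. The log2 fold change lay between 1.31 and 1.52 for Mt-co1, between 1.75 and 2.24 for Mt-co2 and between 1.92 and 2.18 for Mt-co3. It lay between 2.82 and 3.10 for Mt-cyb, between 2.10 and 2.47 for Mt-atp6 and between 2.99 and 3.63 for Mt-atp8. At each of these times Mt-atp8 had the largest fold change of the 6, Mt-cyb the next and Mt-co1 the smallest.

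At 34 h the difference was smaller for each member, and it was not called for 3 of them. Mt-co2 (log2 fold change 1.05, SE 0.15, adjusted p = 4.29e-07), Mt-atp8 (1.64, SE 0.30, adjusted p = 2.10e-05) and Mt-co1 (0.57, SE 0.13, adjusted p = 3.24e-04) were called higher in KO by edgeR. The values were -0.33 (SE 0.43, adjusted p = 0.525) for Mt-cyb, -0.16 (SE 0.32, adjusted p = 0.690) for Mt-co3 and -0.31 (SE 0.34, adjusted p = 0.435) for Mt-atp6. These 3 of 6 higher calls stand beside 27.6% of all genes. Without WT replicate 1 of 34 h, 6 of 6 were called higher, beside 38.0% of all genes, with 1.60 for Mt-cyb, 0.82 for Mt-co1, 1.30 for Mt-co2, 1.01 for Mt-co3, 0.86 for Mt-atp6 and 2.41 for Mt-atp8. Without KO replicate 1 of 34 h, Mt-atp6 was called lower in KO (-0.84, adjusted p = 0.0449). Scaled by library totals, Mt-co1 had 0.29 and was not called (adjusted p = 0.0537). In a fit of the 6 libraries of 34 h alone, 1 member, Mt-co2, was called higher, beside 10.2% of all genes.

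**Figure D2:**
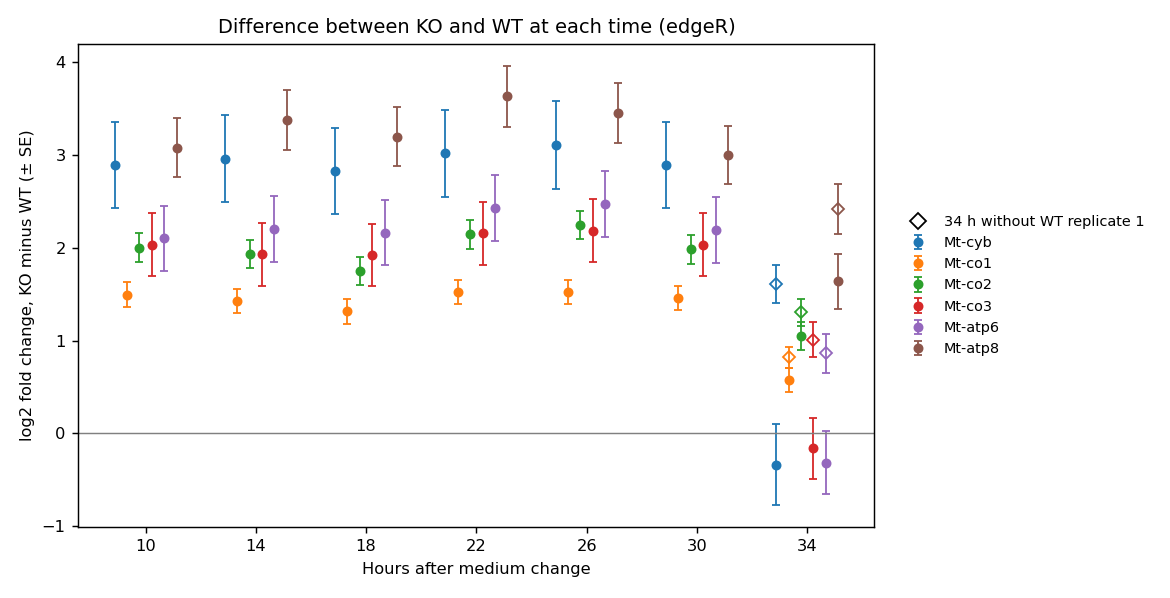
Log2 fold change of KO minus WT (bars, ± SE from edgeR) for the 6 mRNAs at each time, with open diamonds for 34 h without WT replicate 1. Values from 10 to 30 h lie between 1.31 and 3.63; at 34 h they lie between -0.33 and 1.64 with all libraries and between 0.82 and 2.41 without that replicate.

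The dependence of the genotype difference on time was tested as an interaction in the model. Calls were made for 6 of 6 members (39.3% of all genes), with adjusted p from 2.87e-04 for Mt-atp6 to 0.00613 for Mt-atp8 by edgeR. Without WT replicate 1 of 34 h it was called for 5 members and 54.0% of all genes, Mt-atp8 having an adjusted p of 0.0711. With all 6 libraries of 34 h left out it was called for 0 members and 41.1% of all genes, with 1 member at an unadjusted p under 0.05. The calls thus rested on the libraries of 34 h.

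In WT cells the 6 mRNAs were higher at 34 h than at 10 h, and no change was called among the times up to 30 h. Change over the 7 times was called for 6 of 6 (37.5% of all genes), and for 4 without WT replicate 1 of 34 h (44.1%). Without the libraries of 34 h it was called for 0 members, also at an unadjusted p under 0.05, and for 33.3% of all genes. For Mt-atp8 this call (adjusted p = 0.0441) was lost in 25 of the 42 fits that each left out 1 library. Between 10 and 34 h, times that share a phase of a 24 h rhythm, higher calls were made for 6 of 6 members (22.9% of all genes). The log2 rise was 2.64 (SE 0.46) for Mt-cyb, 1.84 (SE 0.35) for Mt-atp6 and 1.62 (SE 0.33) for Mt-co3, and 0.995 (SE 0.32), 0.66 (SE 0.13) and 0.64 (SE 0.15) for Mt-atp8, Mt-co1 and Mt-co2. The rise was called for 4 without WT replicate 1 of 34 h (17.1% of all genes), namely Mt-cyb (0.70), Mt-atp6 (0.66), Mt-co1 (0.41) and Mt-co2 (0.39). Mt-co3 then had 0.45 (adjusted p = 0.0526) and Mt-atp8 0.22 (adjusted p = 0.579). Without WT replicate 1 of 10 h the rise of Mt-atp8 was also not called (0.81, adjusted p = 0.0810).

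The individual libraries show how uneven this was. Relative to the median of the 18 earlier WT libraries, WT replicate 1 of 34 h was at 17.0-fold for Mt-cyb, 8.23-fold for Mt-atp6, 6.57-fold for Mt-co3, 3.50-fold for Mt-atp8 and 2.07-fold for both Mt-co1 and Mt-co2. WT replicate 2 was above the range of those 18 libraries for 5 of 6 members, with 1.26-fold to 1.62-fold of the median, and within it for Mt-atp8. WT replicate 3 was above the range for the same 5 genes, with 1.35-fold to 1.98-fold, and within it for Mt-atp8 with 1.25-fold. All 3 libraries therefore stood on the same side for 5 members, and they differed in size by most for Mt-cyb. How large a share of all genes lay above the earlier WT range in these libraries is not given here. The counts of members are thus not set against other genes.

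In KO cells the direction at 34 h was the other one, in 2 of the 3 libraries. KO replicate 1 was within the range of the 18 earlier KO libraries for 6 of 6 members, at 0.96-fold to 1.06-fold of their median. KO replicates 2 and 3 were below that range for 6 of 6, at 0.39-fold to 0.70-fold and at 0.41-fold to 0.77-fold. Mt-atp8 was the lowest in both, and Mt-co1 the least lowered. The share of all genes below the earlier KO range in these libraries is not given here, so the counts of members are not set against other genes. Change over time in KO was called for 0 members (36.8% of all genes) by edgeR, with 0 at an unadjusted p under 0.05, and for 0 by DESeq2, which gave no adjusted p for Mt-cyb and had 0 of the other 5 at an unadjusted p under 0.05. The log2 change from 10 to 34 h lay between -0.58 for Mt-cyb and -0.26 for Mt-co1. Lower calls were made for 0 members (17.5% of all genes), with 2 at an unadjusted p under 0.05, and DESeq2 gave the same counts over 5 members.

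These KO tests share 1 estimate of the spread with the WT groups. Without WT replicate 1 of 34 h the KO change from 10 to 34 h kept its size, for example -0.58 for Mt-cyb, while its SE went from 0.43 to 0.17, and 5 of 6 members were then called lower. Of all genes, 27.0% were called lower in that fit. Change over time in KO was there called for 5 of 6 members and for 60.6% of all genes. Without KO replicate 1 of 34 h, lower calls from 10 to 34 h were also made for 5 members (15.0% of all genes) and change over time was called for 2 (32.1%). The difference between the genotypes in the change from 10 to 34 h was called for 6 of 6 members (lower in KO, 21.7% of all genes), from -0.92 (SE 0.18) for Mt-co1 to -3.22 (SE 0.63) for Mt-cyb on the log2 scale. It was called for 5 without WT replicate 1 of 34 h (20.5% of all genes), from -0.67 for Mt-co1 to -1.28 for Mt-cyb, and Mt-atp8 had -0.67 with an adjusted p of 0.130.

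**Figure D3:**
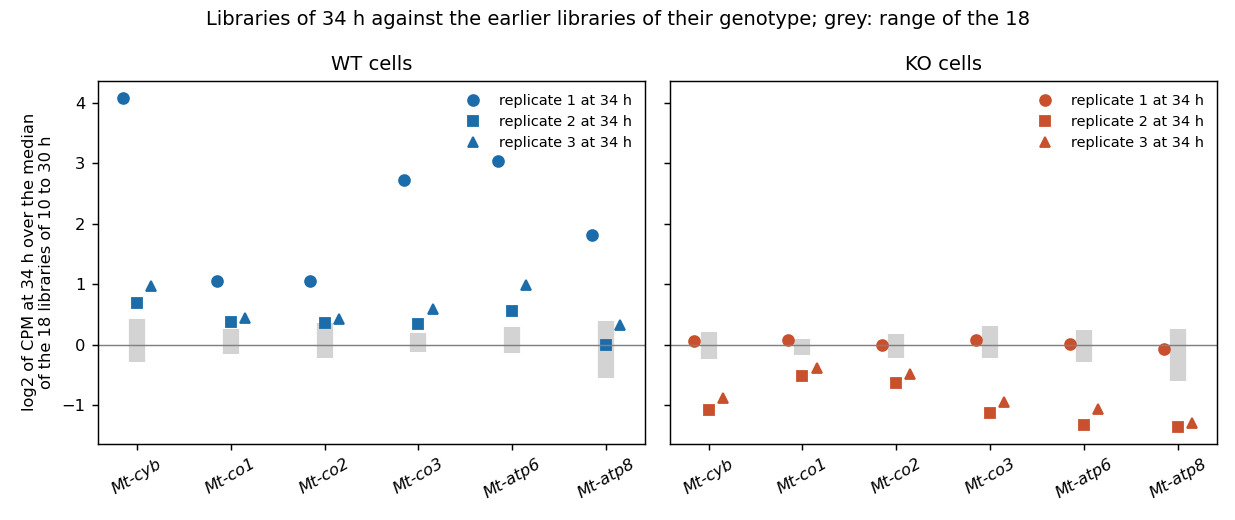
Log2 of the level at 34 h over the median of the 18 libraries of 10 to 30 h of the same genotype, for each mRNA and replicate, with grey bars for the range of those 18 libraries (WT left, KO right). WT replicate 1 lies above the bars for 6 of 6 mRNAs, KO replicates 2 and 3 lie below them for 6 of 6, and KO replicate 1 lies within them. The share of all genes so placed is not given here.

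The group means were then put in order. For each member the 6 KO groups of 10 to 30 h held the top 6 places, and the 6 WT groups of 10 to 30 h held the last 6 places. Neighbours within those WT places differed by less than the larger of their SDs for every member. Among the KO groups of 10 to 30 h, neighbours were farther apart than that in 2 cases: Mt-co2 at 26 h (2005 ± 133 CPM) against 10 h (1865 ± 101 CPM), and Mt-atp8 at 30 h (11.6 ± 1.07 CPM) against 10 h (9.77 ± 1.46 CPM), each with SD and n = 3. The groups of 34 h came in between, with WT above KO for Mt-cyb (969 ± 1241 against 769 ± 351 CPM), Mt-co3 (1176 ± 1131 against 1052 ± 508 CPM) and Mt-atp6 (596 ± 576 against 479 ± 254 CPM), in each case by less than either SD. For Mt-co1, Mt-co2 and Mt-atp8 the KO group of 34 h stayed above the WT group by more than the larger SD, with 6511 ± 1471 against 4384 ± 1200 CPM for Mt-co1.

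A cosinor, the fit of a cosine wave whose period is 24 h, tested for a daily rhythm. It was called for 0 members in WT (1.81% of all genes), with 3 at an unadjusted p under 0.05 by edgeR, and for 0 of the 4 members with an adjusted p by DESeq2, with 1 unadjusted. In KO it was called for 0 members (34.6% of all genes), with 0 at an unadjusted p under 0.05, and for 0 by DESeq2, with 2 unadjusted. The fitted amplitude, the log2 distance from mean to peak, ran from 0.18 for Mt-co1 to 0.95 for Mt-cyb in WT and from 0.043 for Mt-co1 to 0.25 for Mt-atp8 in KO. The fitted WT peaks lay between 9.95 and 11.9 h, the phase that 10 and 34 h share, and without WT replicate 1 of 34 h the WT amplitude of Mt-cyb was 0.20.

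The difference in the cosinor terms between the genotypes was called for 1 member, Mt-atp6 (adjusted p = 0.0441), beside 13.1% of all genes. The other 5 had adjusted p from 0.0563 for Mt-cyb to 0.169 for Mt-co1, and 5 of the 6 had an unadjusted p under 0.05. With a linear term in time for each genotype, the difference was called for 6 (19.8% of all genes), the WT cosinor for Mt-co1 (3.56%) and the KO cosinor for Mt-co2, Mt-co3 and Mt-atp6 (43.0%). Without the libraries of 34 h the difference was called for 0 (30.3% of all genes), with 2 at an unadjusted p under 0.05, and in WT and KO for 0, also unadjusted. The sampling spans 24 h, so no cycle was seen again.

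Together the 6 mRNAs took 0.503% ± 0.237 of all counts in WT and 1.14% ± 0.12 in KO (SD, n = 21 each). The WT share was 0.453% ± 0.057 without replicate 1 of 34 h. This share depends on the library total and not on TMM. Over 10 to 30 h the share was 0.388% to 0.517% in WT and 1.07% to 1.26% in KO, with no overlap. The WT libraries of 34 h had 1.51%, 0.554% and 0.611%, and the KO libraries 1.24%, 0.777% and 0.849%. The most abundant gene of the KO libraries, ENSRNOG00000043866, which was singled out after its values were seen and has no symbol here, took 17.1% ± 0.81 of all KO counts and 0.0505% ± 0.0568 of all WT counts. Like the members, this gene was higher in KO, but by a far larger factor than any of them. Its part in the genotype difference of the members was not tested. With the 2 most abundant KO genes left out of the total, the share of the 6 was 0.514% in WT and 1.42% in KO.

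The mix of the 6 also differed between the genotypes, which is seen from ratios within a library. Over 10 to 30 h there were 5.03 Mt-cyb counts per 100 Mt-co1 counts in WT (median of 18, range 4.67 to 6.63) and 14.7 in KO (13.4 to 15.8). Mt-co2 stood at 16.5 per 100 Mt-co1 in WT (15.3 to 17.9) and 24.3 in KO (22.3 to 27.9). Both ratios were higher in every KO library than in any WT library of these times. Mt-co3 per 100 Mt-co2 had the same median, 82.0, in both genotypes. Mt-atp6 per 100 Mt-co3 was 41.1 in WT (38.1 to 46.3) and 48.8 in KO (44.3 to 52.1), with overlapping ranges. Mt-atp8 per 100 Mt-atp6, the pair on 1 shared mRNA, was 0.802 in WT (0.525 to 1.03) and 1.65 in KO (1.06 to 1.95), and rests on the low counts of Mt-atp8.

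At 34 h some of these ratios moved and others did not. WT replicate 1 had 41.7 Mt-cyb per 100 Mt-co1 and 258 Mt-co3 per 100 Mt-co2, both far above every other library, while its 16.7 Mt-co2 per 100 Mt-co1 lay within the earlier WT range. KO replicates 2 and 3 had 9.74 and 10.3 Mt-cyb per 100 Mt-co1 and 57.5 and 58.9 Mt-co3 per 100 Mt-co2, below the earlier KO ranges, and their Mt-co2 per 100 Mt-co1, 22.9 and 23.1, lay within it. Mt-cyb and Mt-co3 were thus raised or lowered at 34 h more than Mt-co1 and Mt-co2 were, in opposite directions in these 3 libraries. WT replicates 2 and 3 had 6.34 and 7.35 Mt-cyb per 100 Mt-co1, and 79.7 and 91.3 Mt-co3 per 100 Mt-co2. Of these, 7.35 and 91.3 lay above the earlier WT ranges. Mt-atp6 per 100 Mt-co3 was 50.7, 47.3 and 53.0 in WT replicates 1 to 3, above the earlier WT range. In KO it was 47.1, 42.4 and 45.2, and only 42.4 lay below the earlier KO range. Mt-atp8 per 100 Mt-atp6 was 0.339, 0.539 and 0.505 in WT and 1.53, 1.59 and 1.38 in KO.

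**Figure D4:**
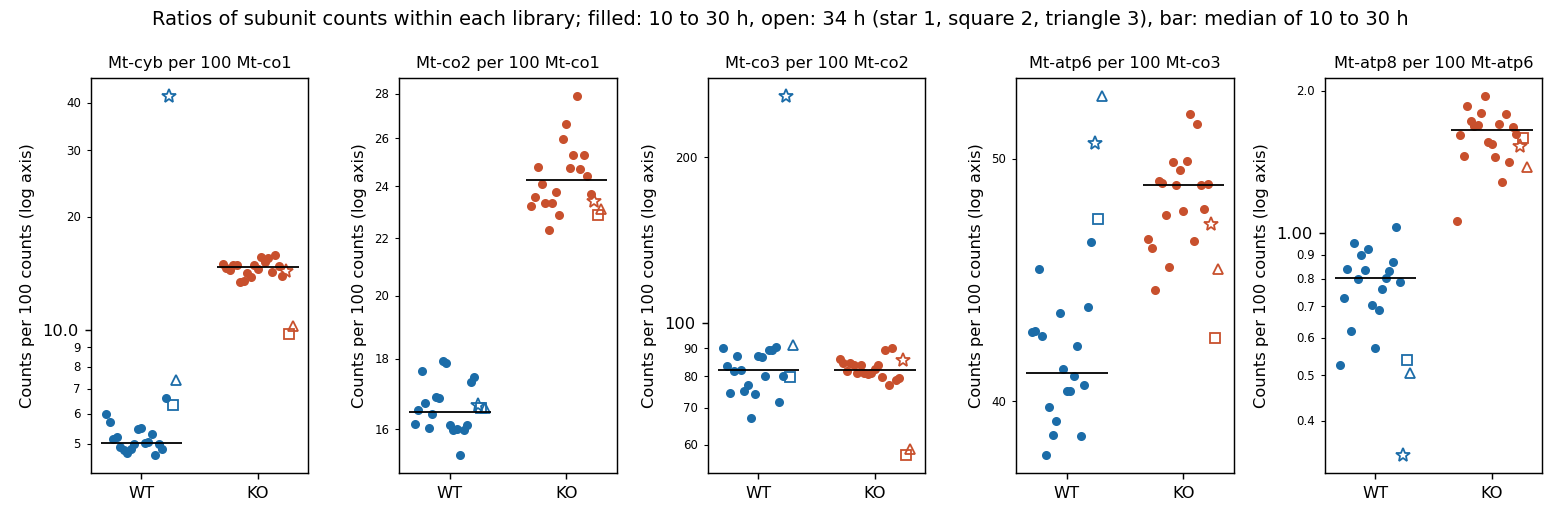
Ratio of the counts of 2 subunit mRNAs within each library (log axes), with filled points for 10 to 30 h, open symbols for 34 h and a bar at the median of the 18 filled points of each genotype. Mt-cyb and Mt-co2 per 100 Mt-co1 separate WT from KO at 10 to 30 h (medians 5.03 and 14.7, and 16.5 and 24.3), while Mt-co3 per 100 Mt-co2 has a median of 82.0 in both.

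Among the other genes, the 1 whose log2 level followed the summed level of the 6 most closely, after the mean of each genotype was taken off, was ENSRNOG00000030644, which has no symbol here. Its Pearson r was 0.974 over 42 libraries and 0.926 over 41 without WT replicate 1 of 34 h, and the next 4 genes had r of 0.938 to 0.958. The points share their library, its depth and its scaling. The level of ENSRNOG00000030644 was 119 ± 175 CPM in WT and 635 ± 154 CPM in KO (SD, n = 21 each), with WT replicate 1 of 34 h included.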

How the data were processed

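RNA from 42 GH4C1 libraries was sequenced as strand-specific pairs of 150 bp reads on a HiSeq 2500, per the labels' protocols. The authors deposited 1 table per genotype of whole-number counts per gene, without normalization; counting was by featureCounts, per the submitters' processing notes. The aligner, build, annotation, strand setting, RNA selection and gene filter are not given in the sources used here. Columns left unused numbered 0. Counts were analysed in R 4.3.3 with edgeR 4.0.16 (quasi-likelihood F test, TMM, 14 group means, Benjamini-Hochberg adjustment over 13776 genes, called at adjusted p under 0.05); filterByExpr removed 0 genes. Cosinors used the 21 libraries of a genotype, or all 42 for their difference. No replicate pair agreed within sampling noise (chi-square per degree of freedom at least 5.48 in 42 pairs, genes with 50 or more counts), so none was treated as 1 library deposited again; this does not show that replicates were separate cultures. Alternatives were other scalings, DESeq2 1.42.0, no filter, the replicate number as a block, each library left out, fits of 1 time, a linear term, and no 34 h libraries; the last, for the group comparisons, was added after the data were seen. All 6 members are named throughout; of other genes, the rule names those whose levels follow the members most closely. The members, lists and tests were chosen with earlier results of these data known. No sequence, position or length of these genes was used here, and the gene lists held by symbol were not analysed here. Plots were drawn with matplotlib 3.10.9 in Python 3.11.15.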

Additional observations from a re-analysis of the deposited data

Results flagged for a closer look

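The interaction test of edgeR called a dependence of the KO and WT difference on time for 6 of 6 members, beside 39.3% of all genes. The adjusted p in that test was 2.87e-04 for Mt-atp6, 4.85e-04 for Mt-cyb, 6.31e-04 for Mt-co1, 6.72e-04 for Mt-co2, 0.00125 for Mt-co3 and 0.00613 for Mt-atp8. Without the libraries of 34 h the interaction was called for 0 members and 41.1% of all genes. The change from 10 to 34 h was lower in KO than in WT by the test of that difference, by -3.22 for Mt-cyb, -2.41 for Mt-atp6, -2.19 for Mt-co3, -1.44 for Mt-atp8, -0.95 for Mt-co2 and -0.92 for Mt-co1 on the log2 scale. Of all genes, 21.7% were called lower in KO by that test. In both tests the call for Mt-atp8 was lost without WT replicate 1 of 34 h, and the difference for Mt-cyb was then -1.28. The cosinor terms of Mt-atp6 differed between the genotypes (edgeR adjusted p = 0.0441), and over the fits that each left out 1 library that p ran from 0.0324 to 0.0718. Such a difference was called for 13.1% of all genes. At 34 h the replicates of both genotypes were far apart, with WT replicate 1 high and KO replicates 2 and 3 low.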

How the results depend on the processing

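Of 4766 tests of single members under an alternative, 4653 kept their side of the threshold and, for fold changes, their direction. Among them were all 293 fold changes over all times that had an adjusted p. DESeq2 gave a p for 5 of 6 members in KO against WT over all times. The filter removed 0 genes, so the fits with no filter repeated the main fit and could not differ. Fits that left out 1 library shared the rest with the main fit. At 34 h, higher calls in KO were 1 in place of 3 in a fit of the 6 libraries of that time (10.2% of all genes in place of 27.6%). With 1 library left out at a time, they ran from 3 to 6 and lower calls from 0 to 1. Over all genes, 7532 to 10421 were then called in either direction. The log2 fold change at 34 h then ran from -0.78 to 1.60 for Mt-cyb, -0.63 to 1.01 for Mt-co3 and -0.84 to 0.86 for Mt-atp6, and the upper ends, with the opposite sign, came without WT replicate 1 of 34 h; Mt-co3 was also at 0.055 without KO replicate 2. Left-out libraries gave 0 to 5 members with a change over time in KO, 0 to 5 called lower from 10 to 34 h in KO and 0 to 4 with a cosinor difference. Over all genes these fits called 4268 to 8346, 3837 to 6969 (in either direction) and 1331 to 3781. The Mt-atp8 change over time in WT had an adjusted p of 0.00293 to 0.600 in those fits. Without the libraries of 34 h, 0 members had an interaction, a change over time in WT or a cosinor difference. Of all genes, 41.1%, 33.3% and 30.3% were called in these tests. In the cosinors, a linear term gave 1 member in WT, 3 in KO and 6 for the difference, beside 3.56%, 43.0% and 19.8% of all genes. DESeq2 gave 4 members for the difference, and its share of all genes is not given here. The share of the 6 in KO was 1.42% without the 2 most abundant KO genes. The causes of these shifts were not tested.

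Whether equal replicate numbers mark a shared batch is not given in the sources used here, and the main fits did not pair them. WT and KO libraries of the same time and number correlated in their deviations from the group means with r of -0.07 to 0.23, above 0.1 in 3 of 21 pairs. Those of the same time and different number had r of -0.22 to 0.11, above 0.1 in 1 of 42 pairs. Of 42 libraries, 18 matched their own number best in the other genotype at their time. With the replicate number as a block, Mt-atp8 had an adjusted p of 0.0597 for the change over time in WT, and the WT cosinor was called for 161 genes in place of 250; no other call of a member moved. Over all genes, the WT cosinor gave 793 calls by DESeq2, 490 with a linear term and 3338 without the 34 h libraries, and 124 to 1895 with 1 library left out. The cosinor difference gave 1800 calls, against 2723 with a linear term, 4172 without the 34 h libraries and 1331 to 3781 with 1 library left out. The comparison at 34 h gave 8358 calls, against 3053 from its 6 libraries alone. With 1 library left out, change over time was called for 4467 to 7786 genes in WT (5168 with all) and 4268 to 8346 in KO (5065 with all). Depth limits Mt-atp8 most, with 39 counts in its lowest library.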
